A study of Homo sapiens with 10 samples.

Results

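H3K9ac was compared between immortalized human astrocytes given no doxycycline and cells of that line given the drug at 1 µg/ml for 7 days, which switches on the IDH1-R132H mutant enzyme. The members were all enriched intervals, called islands, that the authors deposited for these 2 libraries on chromosomes 1 to 22: 88147 without doxycycline and 94807 at 7 days, together 182954 of the 771215 islands in the 9 antibody lists of the series. The cells are a fetal astrocyte line immortalized with SV40 and grown in serum and EGF. Labels give the genotype as WT IDH1 without doxycycline and as IDH1-R132H with it, so that mutant enzyme and drug changed together, and no library of doxycycline without the transgene was analysed here. Each library came from 200000 cells by CUT&RUN, in which an antibody tethers a nuclease that releases the surrounding chromatin. Islands were called against 1 control library, in which cells given no doxycycline received an anti-rabbit HRP secondary antibody as the negative control. There was 1 library a side. Differences below therefore compare 2 libraries, carry no replicate check and no p-value, and their 95% intervals cover counting error only.

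H3K9ac, acetylation of lysine 9 on histone H3, is placed by acetyltransferases such as GCN5 and PCAF and marks active promoters and nearby enhancers. Histone deacetylases remove it, and its donor, acetyl-CoA, ties it to metabolism. IDH1 normally makes 2-oxoglutarate from isocitrate, and the R132H enzyme instead turns 2-oxoglutarate into 2-hydroxyglutarate, which inhibits enzymes that use 2-oxoglutarate, among them histone and DNA demethylases.

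The 7-day library was the larger one, 4.88 times the size of the HRP library against 3.05 times without doxycycline, a ratio of 1.60. The 2-day library was 4.17 times the HRP library. Read counts of single genes and regions below are raw unless a scaling is named. A higher raw count at 2 or 7 days is therefore not by itself a rise, and only the log2 differences are scaled for library size. The 7-day islands held 9489305 reads over 371.6 Mb, against 5695984 reads over 311.7 Mb without doxycycline. To bring the lists closer in depth, 7-day island reads were scaled down to the smaller library. Islands were kept only where these reads would still have met that list's smallest count of 14 and largest caller p of 0.0434. This left 91750 islands and removed 3057 (3.22%), which held 2.06% of the 7-day island reads. Only whole islands were removed. Those kept retained the length called at the full 7-day depth, 362.3 Mb in all, so called lengths were not matched in depth. Reads per kb of island, divided by library size, were 5.99 without doxycycline, 5.78 after 2 days and 5.25 in the depth-matched 7-day list.

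The islands were first set against gene starts, where H3K9ac is known to lie. Positions on hg19 were at hand for 406 genes, of which 308 code for protein. An island covered the start of 196 of these 308 genes (63.6%, 95% exact binomial interval 58.0 to 69.0%) without doxycycline, 205 (66.6%) after 2 days and 205 (66.6%, 61.0 to 71.8%) in the depth-matched 7-day list, while islands covered 10.8%, 11.3% and 12.6% of the 22 autosomes. The intervals of the first and last libraries overlap. Of 23 genes fixed as belonging to other tissues, such as surfactant, keratin and taste receptor genes, 20 had no island at the start in either list, PF4 had one without doxycycline only, and IL21 and HABP2 had one at 7 days only. Of 5 astrocyte genes, APOE and ATP1B1 had an island in both lists, NFIA and MLC1 at 7 days only, and GRIA4 in neither.

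Over the 308 protein-coding genes, 188 (61.0%) had an island at the start in both lists. Differences were read only where either library had at least 50 reads at the depth of the smaller one, so that a 7-day count qualified a start or region by itself from 81 reads; both had to have an island. At the 181 starts that passed this limit, the median difference was 0.10 (95% order-statistic interval 0.02 to 0.22) in summed reads and -0.14 (-0.19 to -0.11) per kb. Summed reads were at least 2-fold higher at 11 (6.08%) and at least 2-fold lower at 4 (2.21%). With all islands within 2 kb of a start summed, in place of the island over it, 197 starts passed, 8 (4.06%) were at least 2-fold higher and 5 (2.54%) at least 2-fold lower. The counts for the gene lists below are to be read against these shares, and each list is small.

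For 4 starts whose islands differed widely, the sequence shown is the 250 bases before the outermost start that RefSeq lists, on GRCh38.p14, since no hg19 sequence was used. RELT and FKBP5 had the largest positive differences in the island over the start, that of RELT falling below 2-fold with islands within 2 kb summed, and CASP2 and BCLAF1 were among the 4 at least 2-fold lower at 7 days. The windows are chr11:73376149-73376398 (plus strand), chr6:35728584-35728833 (minus strand), chr7:143288101-143288350 (plus strand) and chr6:136289847-136290096 (minus strand). Capitals mark 3 short motifs or their reverse complements, and matches may overlap. The GC box is the letters GGGCGG, the CCAAT box is its own name, and the TATA box is the letters TATAAA.
RELT: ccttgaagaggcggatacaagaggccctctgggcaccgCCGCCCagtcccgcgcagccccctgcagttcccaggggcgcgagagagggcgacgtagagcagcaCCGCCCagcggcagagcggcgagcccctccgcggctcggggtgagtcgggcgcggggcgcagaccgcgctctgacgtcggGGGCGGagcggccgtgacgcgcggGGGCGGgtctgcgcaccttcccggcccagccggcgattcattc
FKBP5: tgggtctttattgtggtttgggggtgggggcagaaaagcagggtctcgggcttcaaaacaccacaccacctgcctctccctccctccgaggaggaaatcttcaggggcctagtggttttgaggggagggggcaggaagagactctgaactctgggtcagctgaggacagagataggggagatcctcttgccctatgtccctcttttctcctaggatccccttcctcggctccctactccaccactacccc
CASP2: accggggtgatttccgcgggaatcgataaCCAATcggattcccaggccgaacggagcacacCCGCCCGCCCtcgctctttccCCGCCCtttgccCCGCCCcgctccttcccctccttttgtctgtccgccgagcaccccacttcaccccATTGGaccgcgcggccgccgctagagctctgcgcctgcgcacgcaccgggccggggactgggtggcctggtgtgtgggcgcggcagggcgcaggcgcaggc
BCLAF1: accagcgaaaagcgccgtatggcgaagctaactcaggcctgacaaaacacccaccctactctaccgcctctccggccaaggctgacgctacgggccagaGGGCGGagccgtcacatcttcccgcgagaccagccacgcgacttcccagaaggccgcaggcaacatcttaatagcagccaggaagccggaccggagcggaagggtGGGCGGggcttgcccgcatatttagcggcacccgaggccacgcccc
The RELT window holds 4 GC boxes, CASP2 has 4 with 2 CCAAT boxes, BCLAF1 has 2 GC boxes, and the FKBP5 window holds none of the 3 motifs. Over 35116 RefSeq promoter windows of the same length, 42.6% hold a GC box, 32.0% a CCAAT box and 10.7% a TATA box. FKBP5 also stands apart in base composition, with an observed over expected CpG ratio of 0.145 against 0.982 for RELT, 0.935 for CASP2, 0.885 for BCLAF1 and a median of 0.558 over all windows. Each window is a description of the letters before the start, and binding of any factor there was not measured.

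Of 17 stress and inflammation genes, 14 had an island at the start in both lists, and 13 passed the limit. Of these, 3 were at least 2-fold higher, 1 was at least 2-fold lower, and their median was -0.15. With islands within 2 kb summed, 1 of 13 was at least 2-fold higher and 1 at least 2-fold lower. RELT (chr11:73087444-73108519, plus strand), a receptor of the TNF receptor superfamily, had 53 reads in a 1600-bp island without doxycycline, 415 reads in 15000 bp after 2 days and 435 reads in 16600 bp at 7 days. Scaled for library size, the difference at 7 days was 2.36 log2 units (95% interval 1.94 to 2.80) in summed reads and -1.02 per kb of island. Without doxycycline, islands within 2 kb of the RELT start held 153 reads in 7200 bp, against the same 435 reads at 7 days, and the difference was then 0.83 (0.56 to 1.10). FKBP5 (chr6:35541362-35696360, minus strand), a co-chaperone of the glucocorticoid receptor and a classic glucocorticoid-induced gene, had 67 reads in 2800 bp, 105 in 3000 bp and 396 in 13000 bp at the same times. Its difference at 7 days was 1.88 (1.51 to 2.28), or -0.33 per kb. Here the 2-day island was as narrow as the one without doxycycline, and only the 7-day island was wide. No further island lay within 2 kb of the FKBP5 start in any of these lists. NLRX1, a mitochondrial member of the NLR family, had 59, 63 and 204 reads and a difference of 1.11 (0.69 to 1.55), and of 0.00 per kb. Within 2 kb of the NLRX1 start, islands held 97 reads without doxycycline and 204 at 7 days, a difference of 0.39 (0.04 to 0.76).

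CASP2 (chr7:142985444-143004789, plus strand), an initiator caspase, went the other way at 7 days. Its raw counts were 150 reads in 9400 bp without doxycycline, 174 in 4800 bp after 2 days and 99 in 1800 bp at 7 days. The 2-day count comes from a larger library than the one without doxycycline. Its log2 difference was -1.28 (-1.66 to -0.90) in summed reads and 1.11 per kb. The 7-day island at CASP2 was shorter and denser, and no other island lay within 2 kb of the start in either list. IL6ST, the gp130 signalling subunit of the IL-6 receptor family, lay at -0.15 (-0.44 to 0.15), NFKB2, an NF-kB subunit, at -0.15 (-0.43 to 0.12), and KEAP1, the oxidative stress sensor, at -0.17 (-0.63 to 0.29). CASP1, CASP4 and S100A9 had no island at the start in either list.

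Among glial and neural genes, 6 of 17 (against 61.0% of all 308) had an island at the start in both lists, and none of these 6 differed by 2-fold (median 0.24). APOE, the main lipid carrier made by astrocytes, had 48, 65 and 141 reads without doxycycline, after 2 days and at 7 days, a difference of 0.87 (0.39 to 1.38). ATP1B1, a subunit of the sodium-potassium pump, had 288, 267 and 355 reads and lay at -0.38 (-0.61 to -0.15). NFIA, a transcription factor that drives astrocyte formation, had no island at its start without doxycycline, 31 reads in 1800 bp after 2 days and 62 reads in 3000 bp at 7 days. Its nearest island without doxycycline began 433 bp away. Islands within 2 kb of the start held 130 raw reads without doxycycline and 239 at 7 days. The scaled difference was 0.20 (-0.12 to 0.52), and within 1 kb of the start it was -1.75 (-2.21 to -1.30). MLC1, an astrocyte membrane protein mutated in a leukodystrophy, had 0, 25 and 55 reads, with no island within 2 kb without doxycycline. Both 7-day counts are low, and the depth of these lists cannot tell such an island from one just below the caller's limit. SEMA3C, a secreted guidance cue, showed the opposite: its start lay in a 12000-bp island of 181 reads without doxycycline and in no island after 2 or 7 days. Islands within 2 kb of the SEMA3C start still held 165 raw reads after 2 days and 214 at 7 days. The scaled difference within 2 kb at 7 days was -0.44 (-0.73 to -0.14).

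Of 19 chromatin and transcription genes, 16 had an island in both lists, none of the 15 that passed the limit was 2-fold higher, 1 was 2-fold lower (against 6.08% and 2.21% of all 181), and the median was 0.02. BCLAF1 (chr6:136577765-136610984, minus strand), a BCL2-associated transcription factor, was the lower one, with 221 reads in 9000 bp, 171 in 5200 bp and 177 in 3800 bp and a difference of -1.0 (-1.29 to -0.71), or 0.24 per kb. CTBP2, a corepressor, lay at -0.02 (-0.21 to 0.18) and MED13, a Mediator kinase-module subunit, at -0.11 (-0.38 to 0.16). ETV6, an ETS-family repressor, had no island at its start without doxycycline, 293 reads after 2 days and 569 reads in 14400 bp at 7 days. Without doxycycline an island of 348 reads in 12000 bp had its edge 213 bp from that start, so the call at the ETV6 start turned on a short distance.

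In metabolism, 16 of 21 genes had an island in both lists, 1 of the 15 that passed the limit was at least 2-fold higher, 1 at least 2-fold lower (against 6.08% and 2.21%), and the median was 0.08. With islands within 2 kb summed, none of the 15 was 2-fold lower. PFKFB2 (chr1:207207761-207254368, plus strand), which makes and breaks down the glycolytic activator fructose 2,6-bisphosphate, had 96 reads in 8000 bp, 47 in 3000 bp and 60 in 2800 bp and a difference of -1.36 (-1.85 to -0.88), or 0.16 per kb. Within 2 kb of the PFKFB2 start, islands held 96 reads without doxycycline and 134 in 7400 bp at 7 days, and the difference was -0.20 (-0.59 to 0.19). BTD, which recycles the carboxylase cofactor biotin, had 79, 182 and 264 reads and lay at 1.06 (0.69 to 1.44). GAPDH, a glycolytic enzyme, had 179, 304 and 379 reads and lay at 0.40 (0.14 to 0.67). For adhesion, matrix and cytoskeleton, 12 of 16 genes had an island in both lists, 1 was at least 2-fold higher, none was 2-fold lower, and the median was -0.13. MAPRE2, a microtubule end-binding protein, had 77, 198 and 306 reads and lay at 1.31 (0.95 to 1.69), or at 0.96 (0.63 to 1.31) with islands within 2 kb of the MAPRE2 start summed. The neighbouring caveolin genes CAV1 and CAV2 lay at -0.15 (-0.37 to 0.06) and -0.67 (-1.0 to -0.35).

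**Figure D1:**
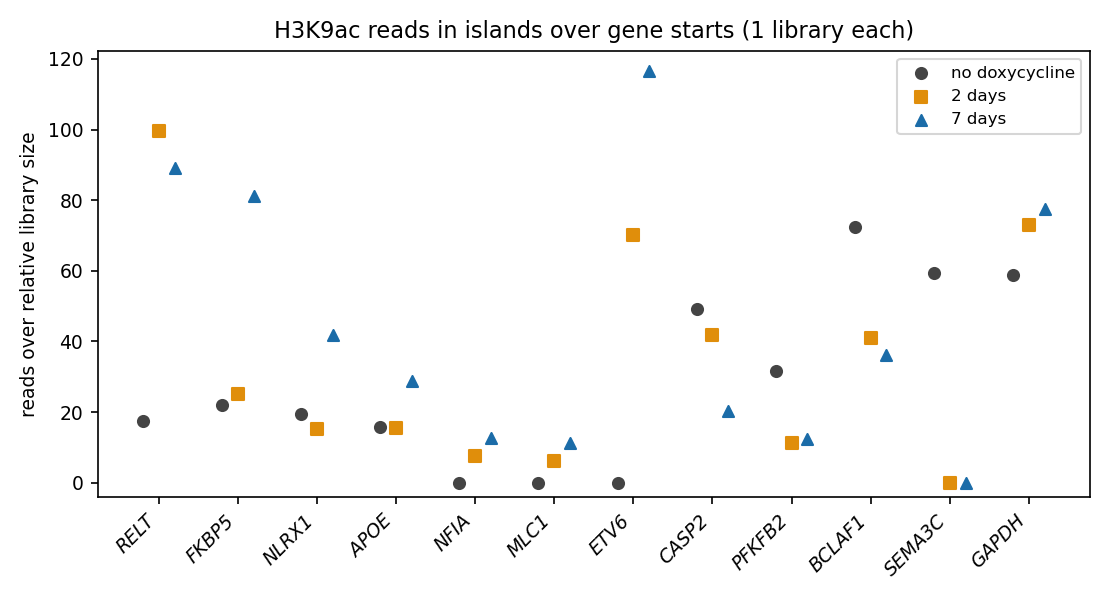
H3K9ac reads in the island over each gene's start, divided by the library's size relative to HRP (vertical axis), for 12 genes (horizontal axis) in the libraries without doxycycline (circles), after 2 days (squares) and after 7 days (triangles); each point is 1 library and a point at 0 means that no island covered the start. RELT was high at both times with doxycycline, FKBP5 at 7 days only, and CASP2, PFKFB2 and BCLAF1 were lower at 7 days than without doxycycline; other islands within 2 kb are not counted here, and with them RELT lay at 0.83 and PFKFB2 at -0.20.

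Among the 181 starts, all of the 10 largest positive differences in the island over the start had a longer island at 7 days and 8 of them were lower per kb, while none of the 10 largest negative ones had a longer island and 9 of them were higher per kb. Of all 181 starts, 32.6% were higher per kb. Besides those described, the positive ones held TCTEX1D4 at 1.78, SEC23B at 1.16, DCUN1D5 at 1.08, GPR19 at 1.07 and NEK2 at 1.07, and the negative ones held HIST1H4H at -1.17, THAP3 at -0.85, TBC1D12 at -0.82 and NID1 at -0.73. At the 47 starts where the 2 islands matched in extent, the median was -0.02 (-0.09 to 0.02), from ALG2 at -0.45 to TUFM at 0.49, and none differed by 2-fold. An island covered the start without doxycycline only at 8 genes and at 7 days only at 17. In 6 of those 8 and 7 of those 17 an island of the other list lay within 2 kb.

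Across the genome, 64232 of 88147 islands without doxycycline (72.9%, 72.6 to 73.2%) were overlapped by a depth-matched 7-day island, and 61434 of 91750 (67.0%, 66.7 to 67.3%) the other way. The overlapped islands held 83.4% and 80.6% of the island reads. The share found again followed the number of reads: 51.8% of islands with 14 to 32 reads and 97.1% of those with 86 to 1207 reads had a 7-day counterpart. In base pairs the lists shared 188.9 Mb, which is 60.6% of the length without doxycycline and 52.1% of the 7-day length.

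**Figure D2:**
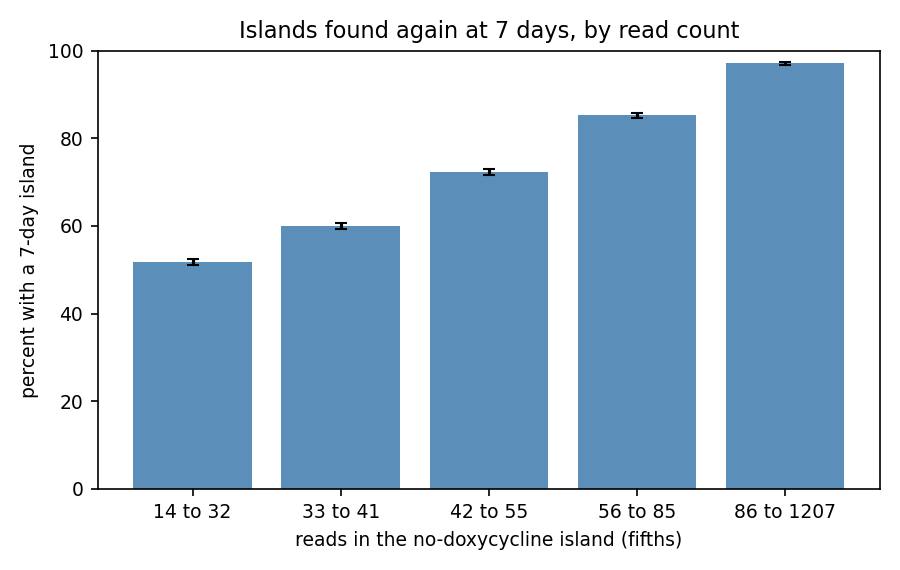
Percent of islands without doxycycline that a depth-matched 7-day island overlapped (vertical axis), in 5 classes of similar size by reads in the island (horizontal axis); bars are shares and error bars 95% exact binomial intervals over islands. The share climbs from 51.8% in the lowest class to 97.1% in the highest.

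Merging overlapping islands gave 108163 regions, of which 53932 had an island in both lists, 23915 without doxycycline only and 30316 at 7 days only. Of the shared regions, 41841 paired 1 island with 1, 3763 split 1 island into several at 7 days and 5519 joined several into 1. In the 40230 shared regions that passed the limit of 50 reads at the smaller depth the median log2 difference was -0.04 (-0.05 to -0.03), with quartiles of -0.43 and 0.36. Summed reads were at least 2-fold higher in 2799 regions (6.96%) and at least 2-fold lower in 2979 (7.4%). Called length moved with these values. Of the higher regions 94.0% were called at least 2-fold longer, against 13.7% of all 40230. Their median length was 2000 bp without doxycycline and 6600 bp at 7 days. Per kb, 2207 of 2799 (78.8%) were lower, but most regions were, as only 30.4% of all 40230 were higher per kb. Of the lower regions 73.4% were called at least 2-fold shorter, against 7.91% of all, from a median of 5000 bp to 2000 bp. Of these lower regions 1359 of 2979 (45.6%) were higher per kb. Reads per kb passed 2-fold in the same direction in none of the higher and 10 of the lower regions. HRP reads per kb in the higher regions were 1.63 in islands without doxycycline and 2.03 at 7 days, and 2.05 and 1.59 in the lower regions. The part of island calling in these differences was not tested.

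**Figure D3:**
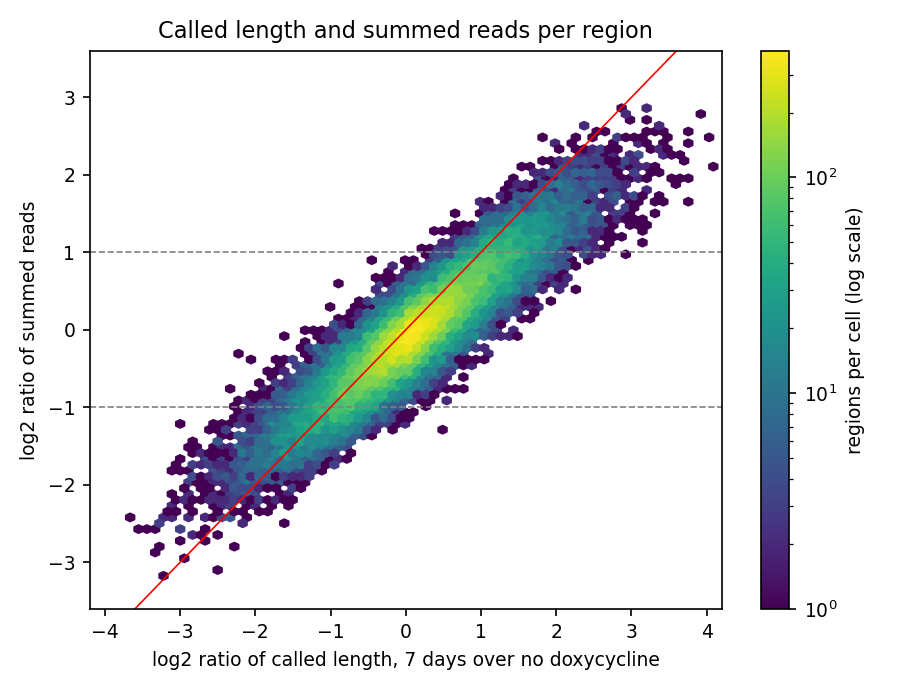
Log2 ratio of summed H3K9ac reads (vertical axis) against log2 ratio of called island length (horizontal axis), 7 days over no doxycycline, for 40230 regions with an island in both lists; color is the number of regions per cell on a log scale, the red line is equality and dashed lines mark 2-fold. Regions spread along the line, so most of those beyond 2-fold in reads also differ in length.

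The region chr15:58956401-58975200 (15q21.3) had 32 reads in 2000 bp without doxycycline, 333 in 16600 bp after 2 days and 372 in 18000 bp at 7 days, the largest positive difference at 2.86 (2.34 to 3.43) in summed reads and -0.31 per kb. Next came chr5:78590801-78605400 (5q14.1), with 29, 149 and 337 reads and a difference of 2.86, and chr3:3193401-3207600 (3p26.2), with 27, 250 and 311 reads and a difference of 2.85. At the other end, chr3:193412001-193422800 (3q29) had 186 reads in 10800 bp without doxycycline and 33 in 1200 bp at 7 days, a difference of -3.17 (-3.76 to -2.63). Its density per kb hardly differed, at -0.00. That region had a further 7-day island that depth matching removed, and with it the 7-day count was 111 raw reads in 4600 bp. Its place as the largest negative difference therefore rests on that removal. The region chr6:42369201-42380000 (6p21.1) had 205 reads, 256 after 2 days and 38 at 7 days, a difference of -3.11 (-3.65 to -2.61) and of -0.56 per kb. None of the 16 regions named by this ranking overlapped 1 of the 406 positioned genes.

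Islands of matched extent, those that overlapped by at least 80% of both lengths, had a narrower spread. They were chosen for near-equal called length, with which summed reads moved, so a narrower spread was built into the choice. In the 6715 such pairs that passed the same limit the median was -0.11 (-0.12 to -0.10), none (0%) was at least 2-fold higher and 19 (0.283%) at least 2-fold lower. The lowest was chr5:107207801-107212000 (5q21.3), with 85 reads without doxycycline, 81 after 2 days and 56 at 7 days, at -1.28 (-1.80 to -0.78). Next came chr22:42200201-42203000 (22q13.2), with 63, 114 and 43 reads, at -1.23 (-1.83 to -0.65). The highest was chr15:55663401-55672200 (15q21.3), with 77, 125 and 237 reads, at 0.94 (0.57 to 1.33). These pairs were 7.62% of the islands without doxycycline and held 13.4% of the island reads of that library.

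**Figure D4:**
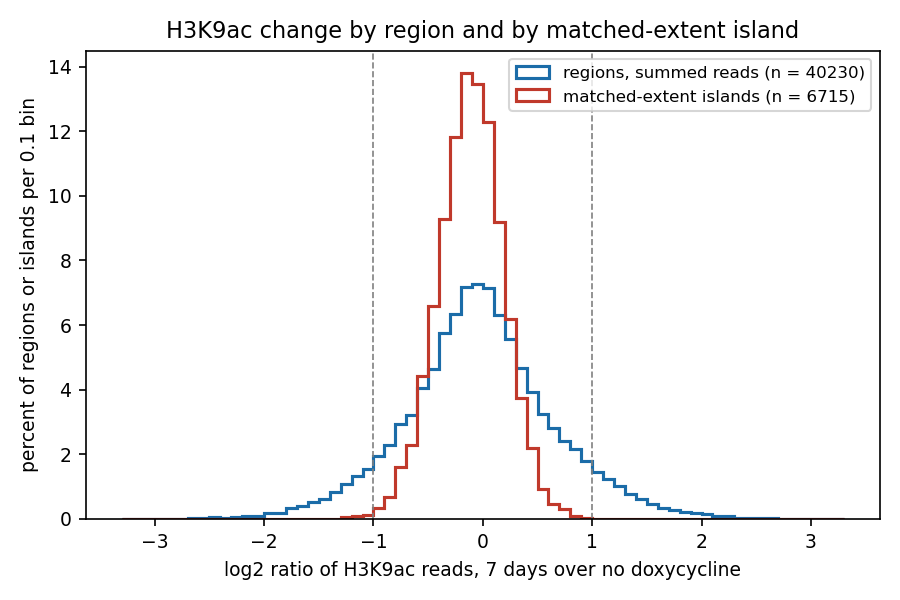
Distribution of the log2 ratio of H3K9ac reads, 7 days over no doxycycline (horizontal axis), as percent per bin of 0.1 (vertical axis), for 40230 regions (blue) and 6715 matched-extent islands (red); dashed lines mark 2-fold. The matched-extent islands lie almost wholly within 2-fold, with a median of -0.11. Their choice for near-equal called length itself narrows the spread.

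The region at chr2:36657001-36700800 (2p22.2) was the widest island without doxycycline, at 43.8 kb. It had 1207 raw reads in that library, 1391 in islands after 2 days and 1748 at 7 days. Library sizes relative to HRP were 3.05, 4.17 and 4.88 in that order, so these counts show no rise by themselves. Islands of at least 20 kb numbered 92 without doxycycline, 87 after 2 days and 232 at 7 days. Of those 232, 213 covered several islands of the library without doxycycline, 19 covered 1 and none lay where that library had no island. Their median difference in summed reads was 0.08, and that of the 92 wide islands without doxycycline was -0.13. The widest 7-day island, chr8:22409801-22464400 (8p21.3), had 972 raw reads in islands without doxycycline, 1441 after 2 days and 1796 at 7 days.

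Regions found in 1 list only were mostly weak. Among 29184 regions with enough reads without doxycycline to give 100 at the 7-day depth, 1942 (6.65%) had no depth-matched 7-day island (1710 of 29214, or 5.85%, with the 7-day list as deposited), and among 15158 regions with enough 7-day reads to give 100 at the smaller depth, 303 (2%) had none without doxycycline. The limits differ in reads, so these shares are not a gain or a loss. HRP reads per kb were 2.68 in the former against 2.13 in all 29184, and 2.37 in the latter against 2.17 in all 15158. With the most reads at 7 days only, chr1:229624401-229641200 (1q42.13), which overlaps the nucleoporin gene NUP133, had 503 reads after 2 days and 374 at 7 days. It was followed by chr7:129370401-129387800 (7q32.2), with 234 and 357, and chr17:4114201-4125000 (17p13.2), with 271 and 343. Without doxycycline only, chr3:152043601-152059200 (3q25.1) had 241 reads, with 42 after 2 days and no island at 7 days, and chr5:138230001-138240200 (5q31.2) had 217 reads, with 263 after 2 days. Depth matching removed a 7-day island from 2 of the 5 with the most reads: chr18:25684001-25698000 (18q12.1), with 291 reads and a 7-day island of 296, and chr17:16418801-16428600 (17p11.2), with 241 reads, 302 after 2 days and a 7-day island of 328.

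The 2-day library, with the same antibody, gives a separate count in these regions. Of the 2799 higher regions 2512 (89.7%) had a 2-day island, and of the 2979 lower regions 2571 (86.3%), against 93.6% of all 40230. The medians that follow cover only regions with a 2-day island, which favours higher 2-day values. In the higher regions the median count over library size was 11.2 without doxycycline, 23.5 after 2 days and 30.2 at 7 days. In the lower regions the medians were 27.2, 18.7 and 10.4. Median called lengths were 2200, 4600 and 6600 bp in the higher regions and 5200, 3400 and 2200 bp in the lower ones. The 2-day medians thus lay between the other 2. The regions were chosen on those other libraries, and both comparisons share the library without doxycycline, so the order is a description.

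H3K27ac and H4K16ac were read from their own libraries in the same regions. H3K27ac, a mark of active enhancers and promoters, had an island at both times in 28046 of the 40230 regions, with a median difference of -0.30 (-0.31 to -0.29). It was -0.34 (-0.39 to -0.28) where H3K9ac was at least 2-fold higher and -0.58 (-0.64 to -0.53) where it was lower. H4K16ac, a mark that loosens chromatin packing, had a median of 0.89 (0.87 to 0.90) in all regions, 1.17 (1.12 to 1.24) where H3K9ac was higher and 0.97 (0.91 to 1.03) where it was lower. These medians are of summed reads, in regions with an island of the mark at both times. For H3K27ac such regions were 42.7% of the higher and 57.9% of the lower ones, against 69.7% of all. For H4K16ac they were 76.1% and 59.6%, against 70.2% of all. Per kb of island the sign was the opposite, with medians over all regions of 0.43 for H3K27ac and -0.53 for H4K16ac. Library sizes differed as well. The 7-day H3K27ac library was 1.49 times the HRP library and the one without doxycycline 3.98 times. For H4K16ac these sizes were 7.88 and 2.53 times. Their part in the medians was not tested. Across regions the differences correlated weakly with those of H3K9ac, with Pearson's r of 0.09 for H3K27ac and 0.07 for H4K16ac, and regions share libraries, so no p is given. At RELT, H3K27ac had 1068 reads in 22400 bp without doxycycline and 321 in 15600 bp at 7 days. The difference in summed reads was -0.32 after scaling. At FKBP5 it had 536 reads in 9800 bp and 125 in 4400 bp, a difference of -0.68. The median over all regions was -0.30. H4K16ac at the RELT start had 100 reads in 5800 bp without doxycycline and 1384 in 36800 bp at 7 days. The difference in summed reads was 2.15, beside the median of 0.89. At FKBP5 H4K16ac had no island without doxycycline and 159 reads in 5200 bp at 7 days. Called length thus moved the same way as the reads for both marks.

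By chromosome, the median region difference ran from -0.09 on chromosome 4 to 0.03 on chromosome 19. Over 683 bands with at least 1000 reads in both lists, summed reads ranged from -0.56 in 19q13.13 to 0.64 in 15q11.2, and followed the covered length closely (Pearson's r of 0.95 across bands). Gene-poor dark Giemsa bands had a median region difference of -0.09 (-0.12 to -0.07) and pale bands of -0.02 (-0.03 to -0.01). Summed over all islands, reads differed by 0.037 in the dark bands and 0.038 in the pale ones. Regions at least 2-fold lower made up 8.86% in dark and 6.89% in pale bands, and those at least 2-fold higher 7.15% and 7.05%. The matched-extent medians were -0.13 and -0.10. Neighbouring regions less than 2 kb apart correlated weakly, with Pearson's r of 0.05 across 7852 pairs that share libraries.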

How the data were processed

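CUT&RUN libraries for H3K9ac, H3K27ac and H4K16ac, 1 for each antibody and time, and 1 HRP control make up the 10 samples. The submitters' processing notes name the build hg19, the aligner Bowtie2 2.3.5.1, the island caller SICER, and also deepTools, Picard, FastQC and cutadapt, with settings not given in the sources used here. Per the file headers, the deposited lists give each island's antibody and HRP read counts, the caller's p-value and a log2 fold change over HRP. Library size relative to HRP was taken from the constant offset between the deposited log2 value and the log2 ratio of the counts, with an HRP count of 0 entered as 0.25. Islands lie on 200-bp windows. No spike-in was named, so a change common to all islands cannot be seen.

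Overlaps of at least 1 bp merged islands into regions, log2 differences were taken after division by library size, and intervals are exact binomial ones at 95%. Code ran in Python 3.11.15 with pandas 2.3.3 and scipy 1.17.1, and its ratios were tested on simulated counts. The simulated islands had the same extents on both sides, so differences in called length and depth matching were not tested that way. Regions, pairs and gene starts entered a ratio where either library had at least 50 reads at the depth of the smaller one (81 reads at 7 days). With 1 library a side no test was run. Members, lists and named regions were chosen with earlier results of these data known. The text names the 8 largest gains and losses of each ranking, the 5 regions with most reads in 1 list only, the 5 widest islands, the 10 largest gains and losses at gene starts and members of the gene lists, or examples of these. Gene positions came from 2 annotation samples installed with pyranges 0.1.4 (368 genes) and GenomicFeatures 1.54.1 (38 genes). The first names no build: it lists 7 hg19 haplotype sequences. Starts are outermost ones, and bands came from circlize 0.4.16. RefSeq sequences are from GRCh38.p14, and 398 of 406 genes matched a RefSeq symbol.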

Additional observations from a re-analysis of the deposited data

How the results depend on the processing

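Medians and shares counted as kept only within the counting interval of the value reported, and counts only within 1.5 times. Of 56 alternative values of the summaries, 12 were kept, 41 moved and 3 changed sign. The intervals are narrow because they count islands, not replicates. Requiring an overlap of 50% of the shorter island gave shares of 66.9% and 61.3% for islands without doxycycline and at 7 days, the 7-day list as deposited 74.1% and 66.2%, equal numbers of islands 71.2% and 67.8%, and islands 2-fold over HRP 63.8% and 62.1%. The median region difference became -0.067 scaled by reads in islands, 0.067 centred on matched-extent islands (a change of sign), -0.031 with random thinning, -0.16 per kb, -0.12 less HRP reads, -0.048 with at least 20 reads, -0.028 with at least 100 and -0.055 in islands 2-fold over HRP. Under the same settings in that order, regions at least 2-fold higher made up 6.58%, 8.88%, 7.35%, 0.224%, 6.32%, 5.37%, 5.92% and 7.31%, and those at least 2-fold lower 7.91%, 5.74%, 7.81%, 1.31%, 10.2%, 6.08%, 4.73% and 8.45%. The matched-extent median was -0.091 at an overlap of 50%, -0.13 scaled by reads in islands and -0.16 less HRP reads. The median over gene starts changed sign to -0.14 per kb.

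Regions in the list without doxycycline only numbered 15630 with at least 50 reads, 46 with at least 200 and 1231 with no island within 2 kb, and those at 7 days only 4676, 4 and 165. Between regions higher and lower per kb, the H3K27ac medians differed by 0.041 in place of 0.24, and the H4K16ac medians by -0.29 in place of 0.20. Scaling by reads in islands shifted every region by -0.026, too little to change the sign of any of the 32 named regions. Of these 32, 11 changed sign per kb: 0.019 at 2q11.2, 0.51 at 10q25.2, 0.55 at 20q11.22, 0.32 at 14q32.32, -0.31 at 15q21.3, -0.33 at 5q14.1, -0.21 at 10q24.32, -1.12 at 11q14.1, -0.19 at 3p21.1, -0.45 at 12q22 and -0.29 at 3q13.2. All 11 were among the 16 regions ranked by summed reads. The named matched-extent islands differed too little in length to change sign per kb. Of 20 gene starts with the largest differences, 17 changed sign per kb: 0.16 at PFKFB2, 1.11 at CASP2, 0.018 at HIST1H4H, 0.24 at BCLAF1, 0.25 at TBC1D12, 0.89 at ZNF197, 0.013 at ZNF512, 0.74 at NID1, 0.094 at CCDC112, -0.52 at BTD and NEK2, -0.21 at GPR19, -0.14 at DCUN1D5, -0.48 at SEC23B, -0.66 at MAPRE2, -0.33 at FKBP5 and -1.02 at RELT. With islands within 2 kb summed all 20 kept their sign, and PFKFB2, NLRX1 and RELT moved beyond their intervals. The cause was not tested. The 7-day list as deposited (gene starts, regions in 1 list) and islands within 2 kb were alternatives added after seeing the data. No paired analysis was possible because each group has 1 library. Depth limits islands under about 50 reads, where an absent island is not an absent mark.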
